A study of Mus musculus with 24 samples.

Results

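ATF4 stress factors and targets are described here as 10 genes, namely the transcription factors ATF4, ATF5, ATF3 and DDIT3 (CHOP), the pseudokinase TRIB3, and the ATF4-responsive genes SESN2, ASNS, CTH, STC2 and VLDLR. They were taken by the gene symbol of the array's probe sets, out of 14884 genes with a symbol, and all 10 were measured, each by 1 probe set. RNA came from subcutaneous plasmacytomas grown from the human multiple myeloma line MM.1S, which was injected in Matrigel into CB17-SCID mice, an immunodeficient strain. The 24 arrays formed 8 groups of 3: vehicle control, each of 3 drugs alone, the 3 pairs, and all 3 together, which allows the series' question of what filanesib adds to pomalidomide and dexamethasone to be asked of these genes. Filanesib (ARRY-520), an inhibitor of the mitotic kinesin spindle protein, was given at 10 mg/kg. Pomalidomide, an immunomodulatory drug that acts through the ubiquitin ligase adaptor cereblon, was given at 8 mg/kg. Dexamethasone, a synthetic glucocorticoid, was given at 0.5 mg/kg. The labels state intraperitoneal dosing and 2 days for every treated group, and each pair or triple used the same doses. All groups share the cell line, the host strain and the site of the tumour, so the design describes 1 tumour line in mice that lack functional B and T cells. The labels name the mouse as organism while the probe sets are those of human genes. They do not say that each array was a separate animal, so the p-values rest on the spread between the 3 arrays of a group, which may be technical.

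ATF4 is the main transcription factor of the integrated stress response. Kinases that sense unfolded protein, amino acid shortage, double-stranded RNA or haem shortage phosphorylate the translation factor eIF2, which lowers general translation while ATF4 mRNA is translated more, so the level of the ATF4 transcript is only part of its control. ATF4 then binds with other bZIP factors at genes for amino acid synthesis and transport, tRNA charging and, under lasting stress, cell death. Plasma cells and myeloma cells make large amounts of secreted protein and are known for their reliance on this response and on the unfolded protein response. No sequence of these genes is printed, since the sequence tables used here are of the mouse and the probe sets are named for human genes.

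Values are the authors' log2 intensities, so a difference of 1 is a doubling, and they were compared only within a gene. Each drug was given to 4 of the groups. Its average effect is the mean of the 4 differences between groups with and without it (12 arrays against 12), and the 4 settings in which it was added are called its backgrounds. Differences are given with the standard error of the fit (±) and called at an adjusted p under 0.05 over all 14884 genes. Array medians lay between 3.65 and 3.73. The arrays with pomalidomide alone spread most around their group means over all genes (SD 0.194 to 0.289, against 0.127 to 0.180 on the other 21 arrays). Over the 10 genes, dexamethasone replicates 1 and 3 lay farthest from their group means.

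**Figure D1:**
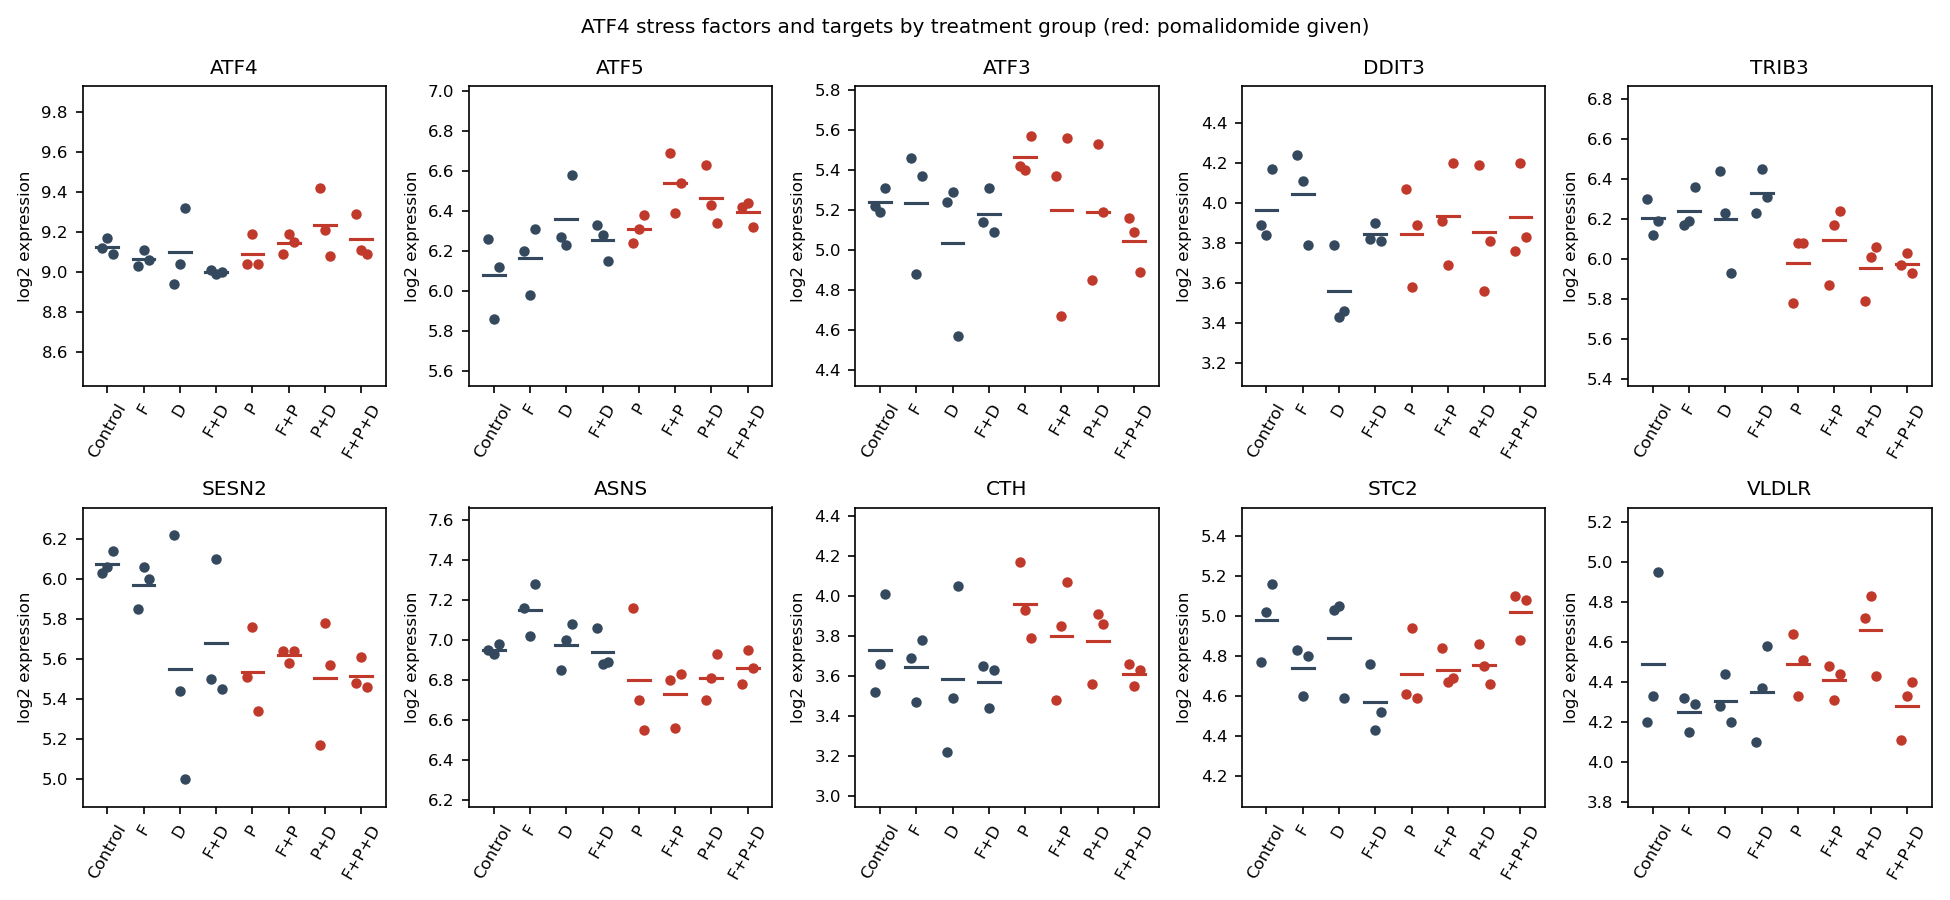
log2 expression of each of the 10 genes (vertical axis, log2 intensity, each panel with its own range) on the 24 arrays by treatment group (horizontal axis: F filanesib, P pomalidomide, D dexamethasone). Points are arrays, bars are group means (n = 3) and red marks groups given pomalidomide. TRIB3 lies at 5.78 to 6.24 in the red groups and 5.93 to 6.45 in the others, whereas ATF4 stays between 8.94 and 9.42 throughout.

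Pomalidomide was the 1 drug whose average effect was called for any of these 10 genes, and the calls depended on the settings. TRIB3 fell and ATF5 rose on average over the 4 backgrounds, and the other 8 genes did not pass the test. ATF4 itself differed by 0.09 ± 0.05 (95% interval -0.02 to 0.20, adjusted p 0.447). Thus 2 of the 10 genes were called, where the background over all genes was 4.86% (2.21% higher and 2.65% lower). After a further quantile normalisation 1 of them was called, ATF5, and with a trended and robust variance prior 1, TRIB3. With every probe set tested 0 were called. The count fell to 1 or 0 in 20 of the 24 omissions of single arrays. An unadjusted p under 0.05 was found for 4 of the 10, TRIB3, ATF5, ASNS and SESN2, and for 17.3% of all genes. With pomalidomide replicates 1 and 3 left out, ASNS was the 1 gene called.

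**Figure D2:**
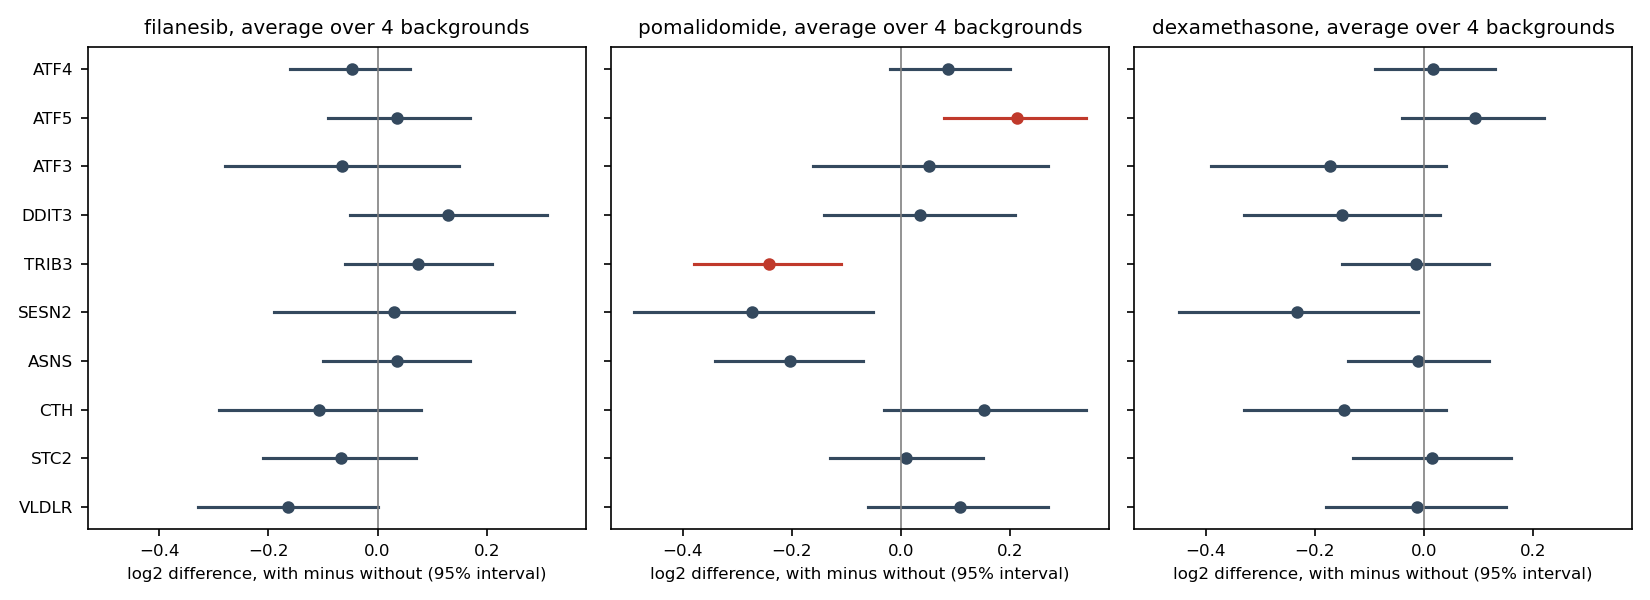
Average effect of each drug on the 10 genes (horizontal axis, log2 difference with minus without the drug, 12 arrays against 12, points with 95% intervals). Red marks the genes with an adjusted p under 0.05, which are ATF5 (0.21) and TRIB3 (-0.24) with pomalidomide. ATF5 lost the call in 18 and TRIB3 in 8 of the 24 omissions of single arrays. TRIB3 also lost it after a further quantile normalisation, ATF5 with a trended and robust variance prior, and both with every probe set tested.

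Among the transcription factors, ATF4 had the narrowest range. The control arrays read 9.12, 9.17 and 9.09, those with filanesib 9.03, 9.11 and 9.06, those with dexamethasone 8.94, 9.04 and 9.32, and those with both 9.01, 8.99 and 9.0. With pomalidomide the arrays read 9.04, 9.19 and 9.04 alone, 9.09, 9.19 and 9.15 beside filanesib, 9.42, 9.21 and 9.08 beside dexamethasone, and 9.29, 9.11 and 9.09 beside both. Group means ran from 9.24 with pomalidomide and dexamethasone to 9.0 with filanesib and dexamethasone, and every pair of neighbours in that order overlapped except the lowest 2 groups. Filanesib plus dexamethasone was also below all control arrays, by 0.13 (95% interval -0.35 to 0.09, adjusted p 0.946). The average effects of filanesib (-0.05, interval -0.16 to 0.06) and of dexamethasone (0.02, interval -0.09 to 0.13) were likewise not called.

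ATF5, a bZIP factor whose translation is controlled like that of ATF4 and which takes part in the mitochondrial stress response, was higher with pomalidomide. Without the drug it read 6.26, 5.86 and 6.12 in controls, 6.20, 5.98 and 6.31 with filanesib, 6.27, 6.23 and 6.58 with dexamethasone, and 6.33, 6.28 and 6.15 with both. With the drug it read 6.24, 6.31 and 6.38 alone, 6.69, 6.39 and 6.54 beside filanesib, 6.63, 6.43 and 6.34 beside dexamethasone, and 6.42, 6.44 and 6.32 beside both. All 12 arrays with pomalidomide were above the median of the 12 without it, 6.24, and 2 were above the highest of them. The mean rose from 6.21 ± 0.18 to 6.43 ± 0.13 (SD, n = 12 each), a log2 difference of 0.21 ± 0.06, or 1.16 times (adjusted p 0.0492). The difference was positive in 4 of 4 backgrounds, at 0.23 alone, 0.38 beside filanesib, 0.11 beside dexamethasone and 0.14 beside both. Control had the lowest mean of the 8 groups (6.08) and filanesib plus pomalidomide the highest (6.54), with overlap between every pair of neighbours. The call was close to the threshold. It was lost with a trended and robust variance prior (adjusted p 0.0642) and with every probe set tested (adjusted p 0.0809). It was kept without control replicate 1, filanesib replicate 3, dexamethasone replicate 3, pomalidomide replicate 1, filanesib-pomalidomide replicate 2 or pomalidomide-dexamethasone replicate 3, and lost without any of the other 18 arrays (adjusted p up to 0.104, without pomalidomide-dexamethasone replicate 1).

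ATF3, a stress-induced factor that ATF4 activates, varied widely between arrays of a group. Its group means lay between 5.03 with dexamethasone and 5.46 with pomalidomide. The 3 arrays with pomalidomide alone read 5.42, 5.40 and 5.57, above the control arrays at 5.22, 5.19 and 5.31, while beside filanesib they spread from 4.67 to 5.56. The highest group was therefore apart from control, but the average effect was 0.05 ± 0.10 (95% interval -0.16 to 0.27). That of dexamethasone was -0.17 (interval -0.39 to 0.04), with 11 of 12 arrays below the median of those without it.

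DDIT3 encodes CHOP, the factor linked to cell death under lasting stress. It lay between 3.43 and 4.24 on all arrays, a low signal that limits what it can show. The dexamethasone arrays read 3.79, 3.43 and 3.46, all below the controls at 3.89, 3.84 and 4.17. That group was the lowest of the 8 and did not overlap the next, filanesib plus dexamethasone at 3.81 to 3.90, yet the difference from control of -0.41 ± 0.17 had an adjusted p of 0.9998 over all genes (unadjusted p 0.0274). With pomalidomide the average difference was 0.04 (interval -0.14 to 0.21) and with filanesib 0.13 (interval -0.05 to 0.31).

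TRIB3, a pseudokinase that ATF4 and CHOP induce and that in turn restrains ATF4, was the gene with the smallest adjusted p. Without pomalidomide it read 6.30, 6.12 and 6.19 in controls, 6.17, 6.19 and 6.36 with filanesib, 6.44, 6.23 and 5.93 with dexamethasone, and 6.23, 6.45 and 6.31 with both. With pomalidomide it read 5.78, 6.08 and 6.08 alone, 5.87, 6.17 and 6.24 beside filanesib, 5.79, 6.01 and 6.06 beside dexamethasone, and 5.97, 6.03 and 5.93 beside both. The 4 groups with the drug were the 4 lowest of the 8, and 11 of their 12 arrays lay below the median of the arrays without it. TRIB3 fell by 0.24 on the log2 scale (± 0.06, 0.85 times, adjusted p 0.0301), from 6.24 ± 0.14 to 6.0 ± 0.14 (SD, n = 12 each). It was lower in 4 of 4 backgrounds, at -0.22 alone, -0.15 beside filanesib, -0.25 beside dexamethasone and -0.35 beside both. Dexamethasone replicate 3, at 5.93, was the 1 array without pomalidomide below 6.12. Without it the difference was -0.28 (adjusted p 0.0097). The call was lost without control 1, filanesib 3, dexamethasone 1 or 2, filanesib-dexamethasone 2, filanesib-pomalidomide 1, pomalidomide-dexamethasone 1 or triple combination 1, with an adjusted p of at most 0.0659. It was also lost after a further quantile normalisation (adjusted p 0.0725) and with every probe set tested (adjusted p 0.054).

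SESN2 encodes sestrin 2, which senses leucine and restrains the growth kinase complex mTORC1. Control arrays, at 6.03, 6.06 and 6.14, and filanesib arrays, at 5.85, 6.06 and 6.0, had the 2 highest means. Dexamethasone arrays spread most, at 6.22, 5.44 and 5.0, and those with filanesib and dexamethasone read 5.50, 6.10 and 5.45. With pomalidomide the arrays read 5.51, 5.76 and 5.34 alone, 5.64, 5.58 and 5.64 beside filanesib, 5.17, 5.78 and 5.57 beside dexamethasone, and 5.48, 5.61 and 5.46 beside both. All 12 were below the median of the arrays without the drug, 6.01, and every one of the 4 groups with it lay below all 3 control arrays. The average difference was -0.27 ± 0.11 (95% interval -0.49 to -0.05, adjusted p 0.160), with -0.54 alone, -0.35 beside filanesib, -0.04 beside dexamethasone and -0.16 beside both. Without dexamethasone replicate 3, the lowest array of all, the difference was -0.34 (adjusted p 0.0349), the 1 single omission of 24 with a call. Without dexamethasone replicate 1, the highest array of all, it was -0.19 (adjusted p 0.256). For dexamethasone the average difference was -0.23 ± 0.11 (interval -0.45 to -0.01, unadjusted p 0.0379, adjusted p 0.641). The difference between pomalidomide's effects with and without dexamethasone was 0.34 (interval -0.10 to 0.78, adjusted p 0.897).

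ASNS, asparagine synthetase, is a classical ATF4 target with an amino acid response element. Without pomalidomide it read 6.95, 6.93 and 6.98 in controls, 7.16, 7.02 and 7.28 with filanesib, 6.85, 7.0 and 7.08 with dexamethasone, and 7.06, 6.88 and 6.89 with both. With it the arrays read 7.16, 6.70 and 6.55 alone, 6.80, 6.56 and 6.83 beside filanesib, 6.70, 6.81 and 6.93 beside dexamethasone, and 6.78, 6.95 and 6.86 beside both. The 4 groups with pomalidomide again had the 4 lowest means, and 8 of 12 arrays were below the lowest array without it. Pomalidomide replicate 1, at 7.16, was above every control array. The average difference was -0.20 ± 0.06 (95% interval -0.34 to -0.07, adjusted p 0.0748). Without pomalidomide replicate 1 it was -0.25 (adjusted p 0.0093), the 1 single omission of 24 with a call. Without pomalidomide replicate 3 it was -0.17 (adjusted p 0.0986). Among the backgrounds the difference was largest beside filanesib, at -0.42 (interval -0.69 to -0.15, adjusted p 0.188). It was -0.15 alone, -0.16 beside dexamethasone and -0.08 beside both. The filanesib arrays were all above the controls, by 0.20 (interval -0.07 to 0.47).

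CTH, the transsulfuration enzyme that makes cysteine from cystathionine, had arrays between 3.22 and 4.17. Its mean of 3.71 lay within the range of the array medians (3.65 to 3.73), a low signal that limits what it can show. Pomalidomide alone had the highest group mean, 3.96 ± 0.19 (SD, n = 3), and filanesib plus dexamethasone the lowest, 3.57 ± 0.11, with overlap at each step of the order. The average difference with pomalidomide was 0.15 ± 0.09 (interval -0.03 to 0.34, adjusted p 0.416), positive in 4 of 4 backgrounds and opposite in sign to that of ASNS. With filanesib it was -0.11 and with dexamethasone -0.15, neither of them called.

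STC2, the secreted glycoprotein stanniocalcin 2, had a different order of groups. The triple combination, at 5.10, 4.88 and 5.08, and the controls, at 4.77, 5.02 and 5.16, had the highest means, and the arrays with filanesib and dexamethasone, at 4.76, 4.43 and 4.52, the lowest. The latter group lay below every control array. Pomalidomide added to filanesib and dexamethasone gave 0.45 ± 0.14 (interval 0.17 to 0.74, unadjusted p 0.0032, adjusted p 0.352), whereas pomalidomide alone gave -0.27 against control (interval -0.55 to 0.01). The interaction of filanesib with pomalidomide was 0.42 ± 0.14 (interval 0.14 to 0.70, unadjusted p 0.0054) and that of pomalidomide with dexamethasone 0.30 ± 0.14 (unadjusted p 0.0392), with adjusted p-values of 0.612 and 0.892. Averaged over backgrounds, the differences were 0.01 with pomalidomide, -0.07 with filanesib and 0.01 with dexamethasone.

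VLDLR, the very low density lipoprotein receptor, which stress can raise through ATF4, lay between 4.10 and 4.95. Its signal was also low, which limits what it can show. The highest array was control replicate 3, at 4.95, beside 4.20 and 4.33 in the other controls. Pomalidomide plus dexamethasone had the highest mean, 4.66, and filanesib the lowest, 4.26. Filanesib had its smallest p among the 10 genes here, with an average of -0.16 ± 0.08 (interval -0.33 to 0.00, unadjusted p 0.0523, adjusted p 0.432). In the triple combination VLDLR differed from pomalidomide plus dexamethasone by -0.38 ± 0.16 (interval -0.71 to -0.05, adjusted p 0.570), with all 3 triple arrays (4.11, 4.33 and 4.40) below all 3 arrays of the pair (4.72, 4.83 and 4.43).

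**Figure D3:**
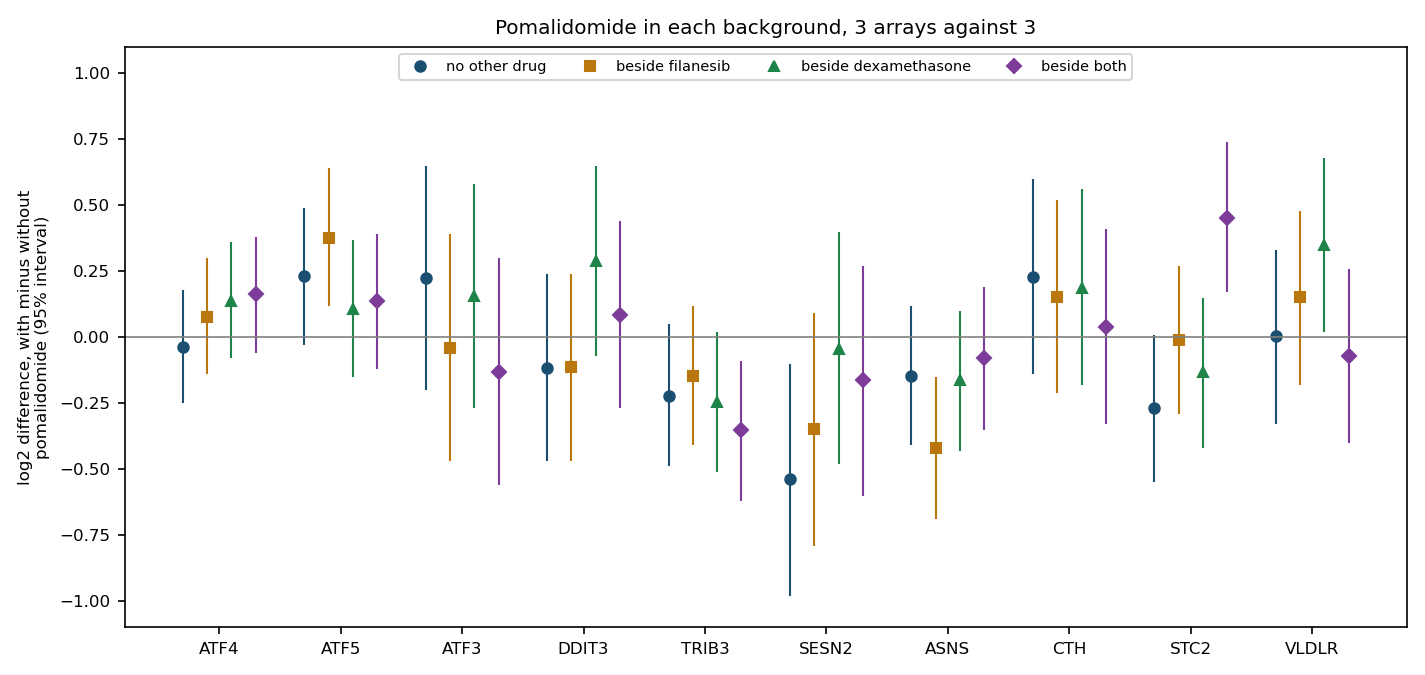
Difference made by pomalidomide in each of its 4 backgrounds for the 10 genes (vertical axis, log2 difference, 3 arrays against 3, points with 95% intervals). TRIB3 is below 0 and ATF5 above 0 in all 4, SESN2 runs from -0.54 to -0.04, and STC2 runs from -0.27 with no other drug to 0.45 beside both.

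The other 2 drugs gave no call among the 10 genes. With filanesib 0 of 10 were called by limma (background 1.40%) and 0 had an unadjusted p under 0.05, which 11.7% of all genes had. With dexamethasone 0 of 10 were called (background 0.0134%) and 1, SESN2, had an unadjusted p under 0.05, as did 7.68% of all genes. The 95% intervals of the average effects set the size of change that these arrays could have missed. For filanesib they reached from -0.33 (VLDLR) to 0.31 (DDIT3), and for dexamethasone from -0.45 (SESN2) to 0.22 (ATF5).

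Interactions, which ask whether one drug changes the effect of another, called 0 of the 10 genes and 0% of all genes for each of the 3 pairs of drugs. STC2 was the 1 gene with an unadjusted p under 0.05 in the interactions of filanesib with pomalidomide and of pomalidomide with dexamethasone, and none of the 10 was in that of filanesib with dexamethasone. The shares of all genes were 6.69%, 5.52% and 4.34% in that order. The triple combination against pomalidomide plus dexamethasone, the comparison that isolates filanesib on top of the pair, called 0 of 10 (background 0.00672%), and VLDLR alone of the 10 had an unadjusted p under 0.05, as did 7.29% of all genes. The members' median difference there was -0.03 and that of all genes -0.01.

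Against control, limma called 0 of the 10 genes in each of the 7 treated groups, all of which were set against the same 3 control arrays. The background was 0% for filanesib, 0.00672% for dexamethasone, 1.98% for pomalidomide, 0% for filanesib plus dexamethasone, 0.141% for filanesib plus pomalidomide, 0.161% for pomalidomide plus dexamethasone and 0.255% for the triple combination. At an unadjusted p under 0.05 there were 0, 3, 1, 1, 2, 2 and 2 of the 10 genes in that order of groups. The shares of all genes at that level were 3.94%, 3.90%, 16.5%, 6.03%, 7.60%, 8.30% and 10.6%, so the 1 of 10 with pomalidomide alone was below its background. SESN2 was among them with dexamethasone and in each of the 4 groups with pomalidomide, at -0.52 with dexamethasone, -0.54 with pomalidomide, -0.45 with filanesib added, -0.56 with dexamethasone added and -0.55 with both added. ATF5 was among them with dexamethasone (0.28), filanesib plus pomalidomide (0.46), pomalidomide plus dexamethasone (0.39) and the triple combination (0.31).

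Counting genes whose 3 treated arrays all lay on one side of the 3 controls gives the same comparisons without a model. ASNS did so with filanesib (1 of 10, background 10.8%) and DDIT3 with dexamethasone (1 of 10, background 9.99%). ATF3, TRIB3 and SESN2 did so with pomalidomide (3 of 10, background 15.6%), and ATF4 and STC2 with filanesib plus dexamethasone (2 of 10, background 13.4%). Among the groups given pomalidomide with another drug, ATF5, ASNS and SESN2 were apart with filanesib plus pomalidomide (3 of 10, background 15.6%), ATF5, TRIB3, ASNS and SESN2 with pomalidomide plus dexamethasone (4 of 10, background 15.4%), and ATF3, ATF5, TRIB3 and SESN2 with the triple combination (4 of 10, background 18.9%).

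A single drug added to another treatment also called 0 of the 10 genes in each case. The background was 0.0202% for filanesib added to dexamethasone and 0.356% for filanesib added to pomalidomide. For pomalidomide it was 0.249% when added to filanesib, 0.0269% when added to dexamethasone and 0.0269% when added to both. For dexamethasone it was 0.00672% when added to filanesib, 0.00672% when added to pomalidomide and 0% when added to both. The smallest adjusted p of any of the 10 genes in these comparisons was 0.188, for ASNS when pomalidomide was added to filanesib.

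Upstream of ATF4, 5 of 13 listed genes for the eIF2 kinases, eIF2 and its phosphatase were measured. With pomalidomide 2 were higher (background 2.21%). EIF2AK2 encodes PKR, the kinase activated by double-stranded RNA and an interferon-induced gene, and rose by 0.48 ± 0.08 (1.40 times, adjusted p 7.35e-04), from 7.94 ± 0.17 to 8.43 ± 0.29 (SD, n = 12 each). EIF2AK4 encodes GCN2, the kinase that senses uncharged tRNA, and rose by 0.43 ± 0.08 (1.34 times, adjusted p 0.0026). The EIF2AK2 difference was 0.54 alone, 0.66 beside filanesib, 0.17 beside dexamethasone and 0.56 beside both, and that of EIF2AK4 was 0.08, 0.56, 0.27 and 0.80. The sensor kinases EIF2AK1 (HRI, -0.07) and EIF2AK3 (PERK, 0.08, adjusted p 0.639) and the GCN2 co-activator GCN1 (-0.16, adjusted p 0.187) did not pass the test. The list's median was 0.08 and that of all genes -0.01. No gene of the list was called with filanesib, where EIF2AK2 stood at 0.22 (adjusted p 0.226), or with dexamethasone.

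Enzymes of amino acid and one-carbon metabolism, to which ASNS and CTH belong by function, had 8 of 14 listed genes measured. With pomalidomide 4 were lower (background 2.65%). The serine pathway enzymes PHGDH (-0.37 ± 0.06, adjusted p 4.83e-04), PSAT1 (-0.49 ± 0.08, adjusted p 0.001) and SHMT2 (-0.24 ± 0.06, adjusted p 0.0222) were among them. The proline enzyme PYCR1 was the other (-0.26 ± 0.08, adjusted p 0.0494), though beside filanesib its difference was 0.05. PYCR1 lost the call under 7 of the 9 alternatives other than single omissions. Its adjusted p was 0.0605 with each array centred on its median, 0.0825 after quantile normalisation, 0.0748 with array weights and 0.0536 with a trended and robust variance prior. It was 0.0681 with the replicate number as a block, 0.0937 with every probe set tested and 0.198 with pomalidomide replicates 1 and 3 left out (difference -0.18). Of the single omissions, its call held without filanesib 2 or 3, dexamethasone 3, pomalidomide 2, filanesib-pomalidomide 2, pomalidomide-dexamethasone 3 or triple combination 1, and was lost in the other 17. SHMT2 was not called with pomalidomide replicates 1 and 3 left out (-0.17, adjusted p 0.122). The list's median was -0.21, with a range from -0.49 to -0.02. With filanesib none was called, and PSAT1 had the smallest adjusted p (0.29 ± 0.08, adjusted p 0.0978).

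Aminoacyl-tRNA synthetases, which load amino acids onto tRNA and include many ATF4 targets, had 13 of 14 listed genes measured. With pomalidomide 1 was lower (background 2.65%), the methionyl enzyme MARS1 (-0.20 ± 0.05, adjusted p 0.0248). It was not called with each array centred on its median (adjusted p 0.0589) or without filanesib replicate 3 (0.0536). With pomalidomide replicates 1 and 3 left out its difference was -0.16, which does not show that the call held there. AARS1 (-0.17), WARS1 (-0.18), YARS1 (-0.18) and VARS1 (-0.16) had unadjusted p-values under 0.05 without passing. The median of the 13 was -0.09 with pomalidomide and 0.11 with filanesib, where 0 were called and AARS1 had the smallest adjusted p (0.16 ± 0.06, adjusted p 0.219). The bZIP partners of ATF4 (5 of 12 measured, median 0.01), a list of other stress outputs such as VEGFA, BBC3 and KLHL24 (10 of 15 measured, median 0.004) and the ATF6 and XBP1 branches of the unfolded protein response (10 of 17 measured, median -0.06) had no gene called with pomalidomide. Nor did any of them have one with filanesib or dexamethasone. Within the ATF6 and XBP1 branches, SEL1L, part of the machinery that removes misfolded protein, came nearest with pomalidomide (-0.22 ± 0.07, adjusted p 0.0691), and SDF2L1 with dexamethasone (-0.27 ± 0.06, adjusted p 0.283). Of 11 listed amino acid transporters, 0 had a probe set with a symbol, so none was tested.

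**Figure D4:**
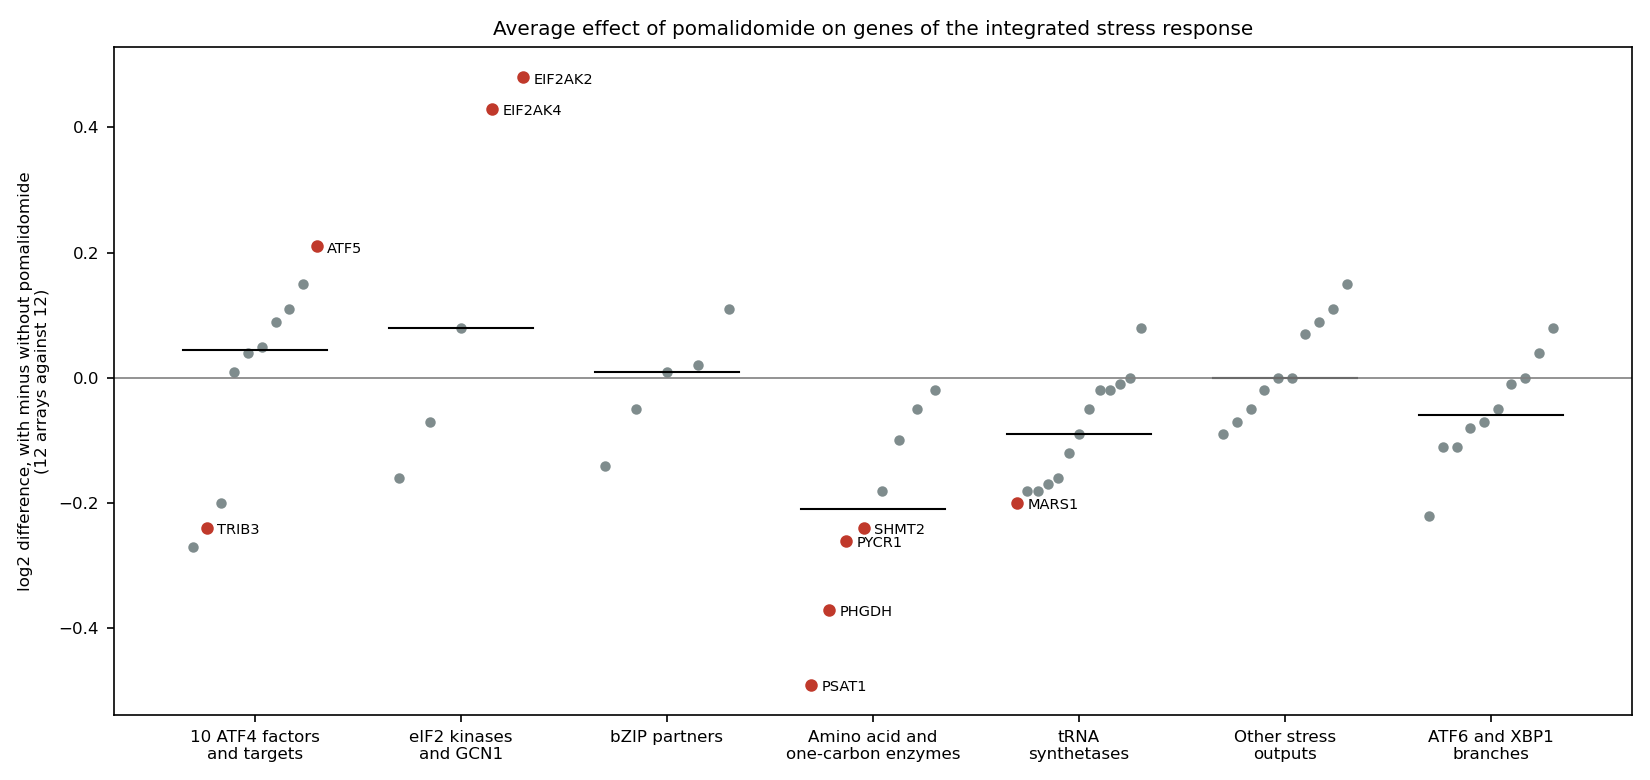
Average effect of pomalidomide (vertical axis, log2 difference with minus without, 12 arrays against 12) for each measured gene of 7 lists of the integrated stress response and unfolded protein response. Points are genes, bars are list medians and red marks genes with an adjusted p under 0.05. EIF2AK2 (0.48) and EIF2AK4 (0.43) lie highest and PSAT1 (-0.49) and PHGDH (-0.37) lowest, while PYCR1 and MARS1 lose the call when each array is centred on its median.

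Genes that share inputs with the 10 were counted too. Of 8 measured targets of p53, which also regulates SESN2, 0 were called with any drug. Of 7 hypoxia targets, 2 were lower with pomalidomide (background 2.65%), ANKRD37 (-0.46 ± 0.08) and the glycolytic enzyme LDHA (-0.29 ± 0.07). The list was mixed, with a median of -0.002 and 3 of the 7 genes above 0. With filanesib 1 was lower, the peptide gene ADM (-0.34 ± 0.08, adjusted p 0.0391). Of all 14884 genes 1.40% were called with filanesib in either direction, 22 lower and 186 higher. The ADM call held without control 2, filanesib 2, dexamethasone 3, pomalidomide 1 or 2, or filanesib-dexamethasone 2, and was lost without any of the other 18 arrays. It was also lost with the replicate number as a block (adjusted p 0.0569) and with every probe set tested (adjusted p 0.135). With pomalidomide replicates 1 and 3 left out the ADM difference was -0.33, which does not show that the call held there. Of 6 immediate early genes, which respond to stress and growth signals as ATF3 does, 2 were higher with pomalidomide (background 2.21%). They were IER2 (0.40 ± 0.09) and KLF6 (0.26 ± 0.05). The median of the 6 was -0.001, with 3 above 0.

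Markers of the tumour cells and of other cells were measured beside these results. The host cells of these tumours are of the mouse, so macrophage, endothelial, fibroblast, adipocyte and neutrophil RNA from the host could be read only where it cross-hybridised to human probe sets, and low values do not show that such cells were few. The mean of 6 plasma cell markers (SDC1, CD38, SLAMF7, IRF4, XBP1 and MZB1) lay between 9.92 and 10.28 on every array. It was 10.14 to 10.28 in controls and 9.92 to 10.09 in the triple combination, below every control, while each of the other 6 groups overlapped the controls. With pomalidomide IRF4, a factor that myeloma cells need, fell by 0.54 on the log2 scale. CD38 was higher by 0.18, a call lost without control 2, filanesib 3, dexamethasone 1 or 3, filanesib-dexamethasone 3, filanesib-pomalidomide 1, pomalidomide-dexamethasone 3 or triple combination 1 (adjusted p up to 0.0611). Of 5 measured macrophage markers 1 changed, CD68, which rose by 0.99 with pomalidomide (adjusted p 4.31e-07). The other 4 (CD14, CSF1R, CD163 and TYROBP) had means between 2.95 and 4.37 and differences between -0.02 and 0.04. The mean of the 5, which includes the rise of CD68, ranged over 4.59 to 4.75 in controls, 4.56 to 4.71 with filanesib, 4.71 to 4.74 with dexamethasone and 4.60 to 4.91 with both. With pomalidomide it ranged over 4.81 to 5.01 alone, 4.76 to 4.92 beside filanesib, 4.91 to 4.99 beside dexamethasone and 4.83 to 4.96 beside both. The mean of 7 endothelial markers was 4.03 to 4.07 in controls. It was below every control with filanesib plus dexamethasone (3.86 to 3.99), filanesib plus pomalidomide (3.88 to 4.02) and the triple combination (3.74 to 3.97), and it overlapped the controls in the other 4 groups. No endothelial gene was called with any of the 3 drugs. The part of these markers in the results for the 10 genes was not tested. Fibroblast markers (3 measured, 2.84 to 3.11), adipocyte markers (4 measured, 3.22 to 3.65) and neutrophil markers (5 measured, 3.52 to 3.77) had no gene called with pomalidomide. In bulk tumour RNA, fewer cells of a type and less RNA per cell cannot be told apart.

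The 10 genes did not move as a block from array to array. Over the 24 arrays, which share the drug groups, 23 of the 45 pairs had a positive Pearson r and the median was 0.05. The highest was 0.63, between TRIB3 and SESN2 (Spearman's rho 0.51), and it was 0.66 after group means were removed. Dexamethasone replicates 1 and 3 lay far apart in both genes, at 6.44 and 5.93 for TRIB3 and 6.22 and 5.0 for SESN2. The correlation without these arrays was not computed. The lowest was -0.60, between ATF4 and TRIB3 (rho -0.54), followed by ATF5 and SESN2 at -0.58. These values describe the arrays and carry no test.

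By the same measure, the genes whose pattern over the 24 arrays was most like each of the 10 came from outside the list in every case. For ATF4 they were CREBRF (r 0.79), TMEM200A (0.75) and MAP3K5 (0.74), and for ATF5 KLF5 (0.84), YPEL2 (0.77) and LYN (0.76). ATF3 was most like ELOVL4 (0.82), NSDHL (0.80) and TMEM101 (0.78), and DDIT3 most like PRICKLE2-AS2 (0.72), ZBTB6 (0.65) and LRRCC1 (0.64). TRIB3 was most like VAT1 (0.79), ARMC6 (0.78) and ZNF668 (0.77), and SESN2 most like MIR758 (0.87), ASB6 (0.81) and LRWD1 (0.78). ASNS had the highest value of all, with DCLRE1A (0.89), followed by MRTO4 (0.81) and CSGALNACT2 (0.80). For STC2 the nearest were MIR4462 (0.68), TNIP1 (0.67) and MCL1 (0.67), for VLDLR KERA (0.69), ENO1-AS1 (0.69) and GPR37 (0.68), and for CTH MIR124-3 (0.69), TKTL2 (0.69) and PCDHB14 (0.68). Each first-named gene was picked as the largest r among 14883 genes.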

How the data were processed

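The authors deposited 1 log2 value per probe set and array. RMA and Affymetrix Expression Console made them, per the submitters' processing notes, with versions not given in the sources used here. Such normalisation can understate differences of genes near background. Of 53617 probe sets 16098 had 1 gene symbol and 37519 none, and the probe set with the highest mean over 24 arrays stood for each of 14884 genes. Differences were tested two-sided with limma 3.58.1 in R 4.3.3, with 1 mean per group, 16 residual degrees of freedom, empirical Bayes variances and Benjamini-Hochberg adjustment over all genes. The median standard error was 0.07 for an average effect and 0.14 for 3 arrays against 3. With 3 arrays per group, precision is limited. The code was tested on simulated data. All 10 genes are named, with up to 4 genes of the smallest p in each other list and the 3 genes most alike. The genes and lists were chosen with earlier results of these data known, so their counts beside the background shares are descriptions and not tests. Alternatives covered centring, quantile normalisation, a filter on dim genes, array weights, the variance prior, probe sets, a replicate block and left-out arrays.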

Additional observations from a re-analysis of the deposited data

How the results depend on the processing

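Among the 14 counts of called genes, the 13 other than pomalidomide's average effect stayed at 0 under all 33 alternatives. The pomalidomide count of 2 became 1 after further quantile normalisation, 1 with a trended and robust variance prior, 1 with pomalidomide replicates 1 and 3 left out and 0 with every probe set tested, and it ran from 0 to 3 over the omissions of single arrays. With array weights it was 3, ASNS included (adjusted p 0.0244). The fit with a replicate block also gave 2. Same-numbered arrays had residual correlations from -0.32 to 0.31. Arrays of different numbers were not set beside them, so whether the numbers pair the arrays is not settled. TRIB3 had adjusted p-values from 0.0097 to 0.0843 and ATF5 from 0.0237 to 0.104 over all alternatives, with no change of sign. With pomalidomide replicates 1 and 3 left out, the sign turned for ATF4 (-0.007), ASNS (0.014), STC2 (-0.041) and VLDLR (0.030) with dexamethasone, DDIT3 with pomalidomide (-0.031) and SESN2 with filanesib (-0.026). Quantile normalisation turned ATF5 (-0.012) and ASNS (-0.011) with filanesib, and array weights turned SESN2 with filanesib (-5.39e-04) and STC2 (-0.011) and VLDLR (0.031) with dexamethasone. Omitting single arrays gave both signs for ATF4 (-0.010 to 0.037), TRIB3 (-0.045 to 0.019), ASNS (-0.043 to 0.033), STC2 (-0.012 to 0.052) and VLDLR (-0.049 to 0.045) with dexamethasone, for ATF3 (-0.123 to 9.07e-04) and SESN2 (-0.039 to 0.113) with filanesib, and for ATF3 (-0.006 to 0.119), DDIT3 (-0.006 to 0.072) and STC2 (-0.028 to 0.034) with pomalidomide. None of these was called, and the cause was not tested. The filter on dim genes removed DDIT3, VLDLR and CTH, whose low signal limits what they can show.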
